A study of Mus musculus with 10 samples.

Results

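Hrk and 9 further genes of the BCL2 family were followed across all 10 libraries of a study of the newborn mouse cochlea, the organ of hearing. The 10 genes, of 54532 in the count table, were taken by their mouse symbols. Hrk was selected on its fold change between genotypes in these same libraries, and the other 9 were listed for their place in the family so that their own levels could be compared. All animals were female, were taken on postnatal day 1, and carried 2 floxed copies of Esrrg (Esrrgfl/fl), the gene of estrogen-related receptor gamma. The 5 control animals had no other allele named in the labels, and the 5 animals labelled conditional knockout (cKO) carried Sox10-Cre in addition, a recombinase driven by sequence of Sox10, which is expressed in glia, melanocytes and the epithelium of the ear. Each library held polyadenylated RNA from the pair of cochleae of 1 animal, after the bony capsule had been taken off.

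The BCL2 family decides whether the outer mitochondrial membrane is opened during apoptosis. Pro-survival proteins (products of Bcl2, Bcl2l1, Bcl2l2 and Mcl1) hold the effectors BAX and BAK in check, and BH3-only proteins (products of Hrk, Bcl2l11, Bbc3 and Pmaip1) bind the pro-survival proteins and release that check. Once the membrane is open, cytochrome c leaves the mitochondrion, binds APAF1 and activates caspase 9 and, through it, the executioner caspases. Hrk, also called DP5, is known mainly from neurons, where it is induced when trophic support is withdrawn, and developing spiral ganglion neurons depend on neurotrophins for survival.

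The libraries held 33487089 to 41779836 counts. Esrrg itself was higher in the libraries labelled cKO, with 2768 to 3632 counts against 1725 to 2414 in the controls (log2 fold change 0.62, SE 0.117, edgeR adjusted p = 0.0259; exact two-sided permutation p = 0.00794). A gene count sums all exons, so it cannot tell a deleted exon from an intact one. The total count of the targeted gene was not lower under the cKO label and cannot show the deletion, so each direction below rests on the label alone. On the first principal component of the 500 most variable genes control 2 was far from its group. It lay at -29.0, against -4.11 to 5.70 in the other controls. Likewise cKO 5 lay at 17.9, against -0.69 to 1.77 in the other libraries labelled cKO. Values without control 2 are given where they differ, and values without cKO 5 for some genes only. Summed levels of the fixed markers of hair cells were 273.7 to 350.7 CPM in controls and 270.7 to 353.5 CPM in the libraries labelled cKO (CPM, counts per 1000000 of the scaled library total), and those of supporting cells and of strial cells were present in every library. No gene on the 9 marker lists was at 0 in all libraries.

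Hrk (ENSMUSG00000046607, GRCm38 chromosome 5, 118164648 to 118189478, plus strand) had more counts in every library labelled cKO than in any control. Control libraries 1 to 5 held 390, 176, 205, 253 and 275 counts, which are 9.10, 4.95, 5.94, 7.01 and 7.03 CPM. The libraries labelled cKO held 734, 498, 544, 438 and 490 counts, which are 22.0, 14.2, 13.5, 11.2 and 13.4 CPM. The lowest library labelled cKO, replicate 4, thus lay above the highest control, replicate 1, and cKO 1 lay well above the other 4. Group means were 6.81 ± 1.54 and 14.9 ± 4.15 CPM (SD, n = 5 each). That is 2.18-fold, or 1.12 on the log2 scale (SE 0.191). These values chose the gene, so no p is given for them. The SE comes from the F statistic of the same fit and is given only as a description. As description, 216 of the 17937 tested genes (1.2%) were higher without overlap between genotypes, and 13 (0.0725%) were called higher. In these bulk samples, more cells that hold Hrk RNA and more Hrk RNA per cell cannot be told apart.

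The fold of Hrk was largest without control 1 and smallest without cKO 1, with log2 fold changes of 1.25 and 0.94. Without control 2 it was 1.02, and without cKO 5 it was 1.16. The scale also mattered: on log2(FPKM + 1) the difference was 0.71, since the added 1 is close to the level of the gene itself.

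Markers of cell types that the tissue could hold were read beside Hrk. Over all tested genes 51.7% had a fold change below 0 and 0.619% were called. Of 16 spiral ganglion neuron markers, 12 had a lower and 4 a higher log2 fold change, and the 4 that passed the edgeR test, among them Calb2, Elavl4 and Slc17a7, were all lower. The summed level of these 16 markers was 1685 to 1760 CPM in controls and 1134 to 1779 CPM in the libraries labelled cKO, so the sums overlapped. Of 9 glial markers 7 had a lower fold change and none passed the test, with sums of 1105 to 1303 and 783 to 1170 CPM. Of 8 brain markers, 7 were tested and all had a lower fold change, 4 of them called (Aqp4, Cbln1, Olig1 and Olig2). Their sums were 50.8 to 61.2 and 35.9 to 48.8 CPM and did not overlap. Erythroid sums were 714 to 2968 CPM in controls, highest in control 2, and 444 to 1296 CPM in the libraries labelled cKO. The 8 macrophage markers had 4 higher and 4 lower fold changes, with sums of 189 to 228 and 215 to 262 CPM. Of 8 strial and melanocyte markers 7 had a higher and 1 a lower fold change, and none was called. Their median log2 fold change was 0.13, with sums of 387 to 531 and 469 to 533 CPM, which overlapped. Hair cell markers had 3 higher and 5 lower fold changes, and supporting cell markers 2 higher and 4 lower, with 0 calls. The part of these cell types in the Hrk result was not tested.

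**Figure D1:**
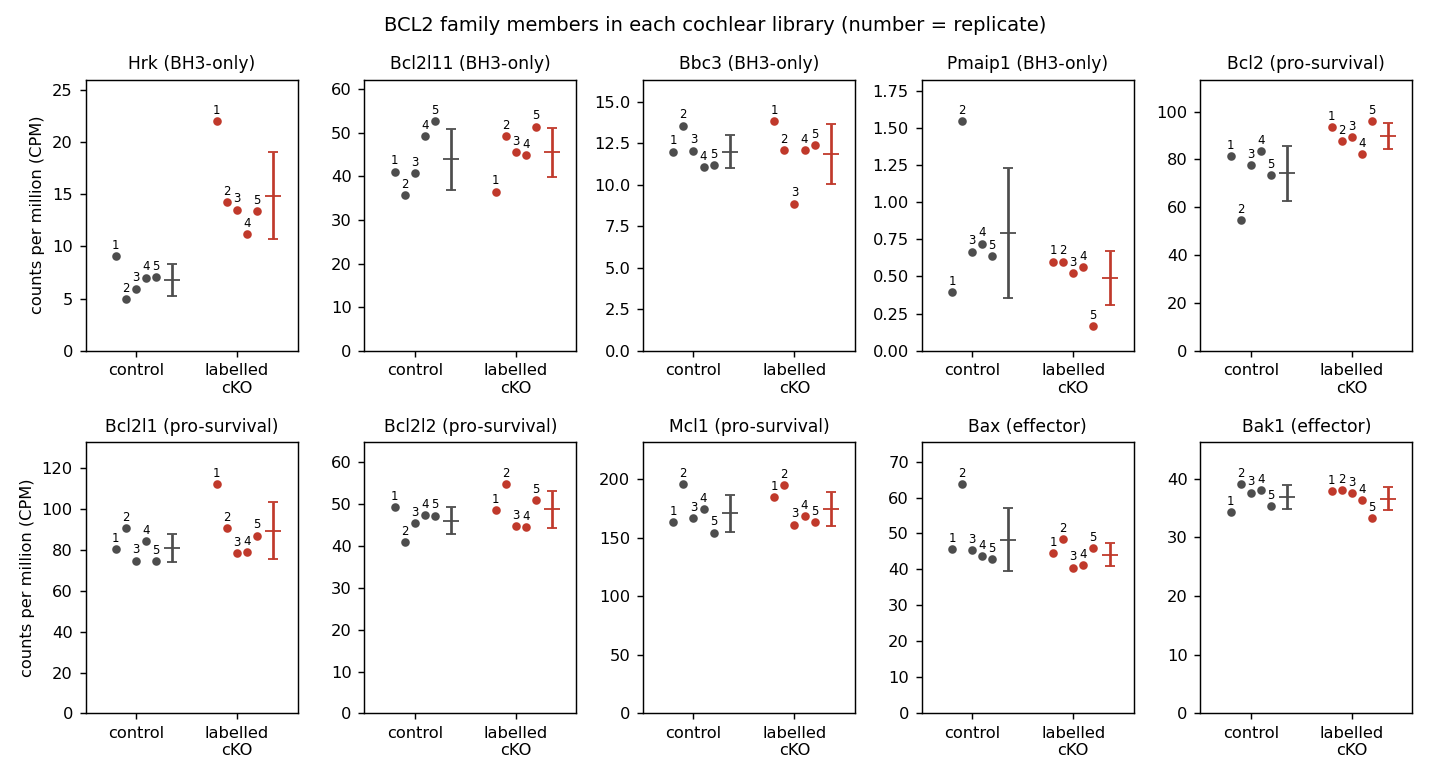
CPM (vertical axes, from 0) of the 10 family members in each library, by genotype label; each point is 1 animal, numbered by replicate, and the bar gives the group mean ± SD (n = 5). Hrk, which was picked for its rise, is the only member whose groups do not overlap. It had 4.95 to 9.10 CPM in controls and 11.2 to 22.0 CPM in the libraries labelled cKO. Of all tested genes 2.84% were without overlap.

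The sequence in front of the Hrk start is shown because Hrk is the member whose counts separated the genotypes, together with short stretches of Bcl2l1, the other member with a match to a motif searched. RefSeq promoter sequences (GRCm38.p6) were found by symbol for 9 of the 10 members, with 14 start sites among them, and the 250 bases before each start were searched on both strands. The RefSeq start of Hrk lies inside the span of the GENCODE gene given above, downstream of its first base, and both Bcl2l1 windows shown likewise lie inside the span of that gene. The motifs were chosen with the Hrk sequence already in view. Capitals mark the match, and sequences run 5′ to 3′ on the strand of the gene.
Hrk, chr5:118169514-118169763, plus strand: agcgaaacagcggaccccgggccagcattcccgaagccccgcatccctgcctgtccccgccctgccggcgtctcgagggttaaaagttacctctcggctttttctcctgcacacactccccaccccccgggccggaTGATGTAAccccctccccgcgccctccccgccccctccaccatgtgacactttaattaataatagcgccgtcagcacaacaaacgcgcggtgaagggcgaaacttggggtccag
Bcl2l1, match at chr2:152828587-152828593, minus strand: actggccatgTGACCTTggacaggctg
Bcl2l1, match at chr2:152830855-152830862, minus strand: ccgcgtccctGCGCGAAAccttgagatt

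The Hrk window held TGATGTAA, a sequence of the type bound by ATF and JUN factors, 107 to 114 bases before the start. This word occurred in 0.965% of 32851 promoter windows of the same length and in no other member. The core of the estrogen-related receptor site, AAGGTCA, was present in 4.08% of all windows. Among the members it was found once, on the strand opposite to the gene, in front of one of 3 start sites of Bcl2l1. The longer TCAAGGTCA, which contains that core, was in 0.387% of all windows and in no member. An E2F-type site (TTTGGCGC or TTTCGCGC, 0.654% of all windows) lay before another Bcl2l1 start, and neither TGANTCA, the AP-1 site (6.75%), nor TGACGTCA, the cAMP response element (1.55%), was found before any member. GC content of the Hrk window was 63.2%, against a median of 52.4%. These are matches of letters and were not tied to binding by any data here.

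The question for the other 9 members was whether pro-death or pro-survival genes also differed. None of the 9 was called by edgeR at an adjusted p under 0.05, where 0.619% of all 17937 tested genes were called. One of the 9, Bcl2, had an unadjusted p under 0.05, where 9.65% of all tested genes had one. DESeq2 and limma-voom likewise called 0 of the 9, each with 1 gene at an unadjusted p under 0.05. All 10 members passed the filter on low counts. Of the 9, 5 had a higher and 4 a lower log2 fold change, with a median of 0.03 against -0.01 for all tested genes. None of the 9 was without overlap between genotypes, which 2.84% of all tested genes were.

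**Figure D2:**
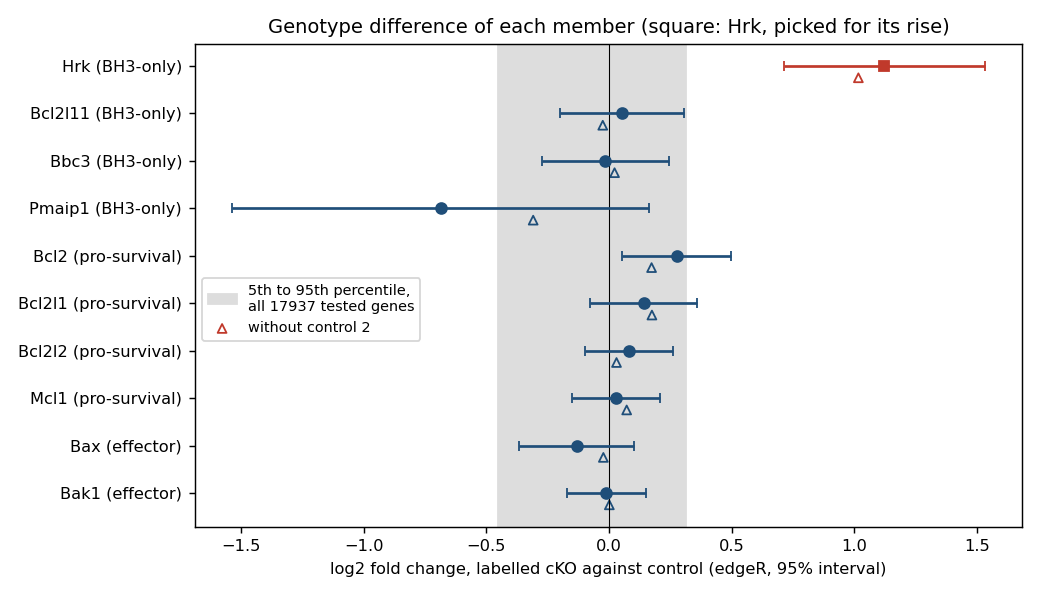
Log2 fold change (horizontal axis) of each member, libraries labelled cKO against controls, with the 95% interval of the edgeR fit; triangles give the value without control 2, and the grey band spans the 5th to 95th percentile of all tested genes. Hrk, at 1.12, was picked for this value; the other 9 members lie between -0.69 and 0.28.

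Among the BH3-only genes, Bcl2l11 (BIM, a BH3-only protein that engages all the main pro-survival proteins; chromosome 2, 128126038 to 128162547) showed no separation. It measured 41.1, 35.6, 40.8, 49.3 and 52.7 CPM in controls 1 to 5. The libraries labelled cKO measured 36.5, 49.2, 45.6, 44.8 and 51.4 CPM. Both groups spanned nearly the same range, and the lowest value of each came from the library in which Hrk was lowest (control 2) or highest (cKO 1). The log2 fold change was 0.05 (95% interval -0.20 to 0.30; edgeR adjusted p = 0.907), and it was -0.026 without control 2.

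Bbc3 (PUMA, a p53 target; chromosome 7, 16308393 to 16318205) had 12.0, 13.6, 12.1, 11.1 and 11.2 CPM in controls. The libraries labelled cKO had 13.9, 12.1, 8.88, 12.1 and 12.4 CPM. Replicate 3 was the lowest of all 10 and replicate 1 the highest, both within the cKO label. The log2 fold change was -0.01 (95% interval -0.27 to 0.25; edgeR adjusted p = 0.975). It was 0.02 without control 2 and 0.07 without cKO 3.

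Pmaip1 (NOXA, which binds MCL1; chromosome 18, 66458533 to 66465565) was the least abundant member. It had 17, 55, 23, 26 and 25 counts in controls and 20, 21, 21, 22 and 6 counts in the libraries labelled cKO. Control 2 was high and cKO 5 low, and the other 8 libraries lay between 17 and 26 counts. The log2 fold change was -0.69 with the widest interval of the family, -1.54 to 0.16 (edgeR adjusted p = 0.613). It was -0.31 without control 2 and -0.47 without cKO 5. The interval spans 0, and the value rests largely on control 2 and in part on cKO 5.

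Bcl2 (the founding pro-survival member; chromosome 1, 106538178 to 106714274) came closest to a difference among the 9. Controls 1 to 5 had 81.5, 54.8, 77.7, 83.6 and 73.4 CPM. The libraries labelled cKO had 93.7, 87.8, 89.3, 82.2 and 96.0 CPM. Only cKO 4 fell within the range of the controls, and control 2 was the lowest of all. The group means were 74.2 ± 11.5 and 89.8 ± 5.37 CPM (SD, n = 5 each). The difference was 0.28 on the log2 scale (SE 0.104, 95% interval 0.05 to 0.50; unadjusted p = 0.0189, edgeR adjusted p = 0.407). Without control 2 the log2 fold change was 0.17 and the adjusted p 0.318, and the adjusted p lay between 0.226 and 0.739 over all alternatives.

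Bcl2l1 encodes BCL-XL, a pro-survival protein that HRK binds (chromosome 2, 152780668 to 152831728). It measured 80.5, 90.6, 74.7, 84.3 and 74.6 CPM in controls. In the libraries labelled cKO it measured 112, 90.5, 78.2, 78.8 and 86.9 CPM. As for Hrk, cKO 1 was the highest library, while the other 4 lay in the range of the controls. The log2 fold change of 0.14 (95% interval -0.08 to 0.36; edgeR adjusted p = 0.668) was 0.04 without cKO 1.

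Bcl2l2 (BCL-W, a pro-survival member; chromosome 14, 54883377 to 54888234) had 40.8 to 49.2 CPM in controls and 44.5 to 54.8 CPM in the libraries labelled cKO, with medians of 47.2 and 48.5. Its log2 fold change was 0.08 (95% interval -0.10 to 0.26, edgeR adjusted p = 0.771), and 0.03 without control 2. Mcl1, a short-lived pro-survival protein (chromosome 3, 95658788 to 95663176), had 154 to 196 CPM in controls and 161 to 195 CPM in the libraries labelled cKO. Its log2 fold change was 0.03 (95% interval -0.15 to 0.21; edgeR adjusted p = 0.926). All 4 pro-survival genes thus had a fold change above 0, none passed the test, and for Mcl1 the sign turned without control 5 (-0.0056) or without cKO 2 (-0.02).

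Neither effector passed the test. Bax (chromosome 7, 45461697 to 45466898) had 45.6, 63.8, 45.5, 43.8 and 42.9 CPM in controls and 44.5, 48.3, 40.5, 41.3 and 45.9 CPM in the libraries labelled cKO. Control 2 was far above every other library, and the log2 fold change of -0.13 (95% interval -0.37 to 0.10; edgeR adjusted p = 0.713) was -0.02 without it. Bak1 (chromosome 17, 27019810 to 27029009) was the steadiest member, with a coefficient of variation of 5.45% in controls and 5.33% in the libraries labelled cKO. It had 34.3 to 39.1 and 33.3 to 38.1 CPM, a log2 fold change of -0.01 (95% interval -0.17 to 0.15; edgeR adjusted p = 0.971).

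For 8 of the 9 genes the 95% interval of the log2 fold change lay within 0.5 of zero on both sides, and Pmaip1 was the exception. These intervals are per gene and not adjusted for their number. Exons of Bcl2, Bcl2l2, Bax and Bak1 overlap those of another gene, on the opposite strand for Bcl2 and Bak1. The overlapping genes had 0 to 3 counts beside Bcl2, Bcl2l2 and Bax, and 149 to 228 counts for Ggnbp1 beside Bak1. The use of strand in the counting is not given in the sources used here.

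**Figure D3:**
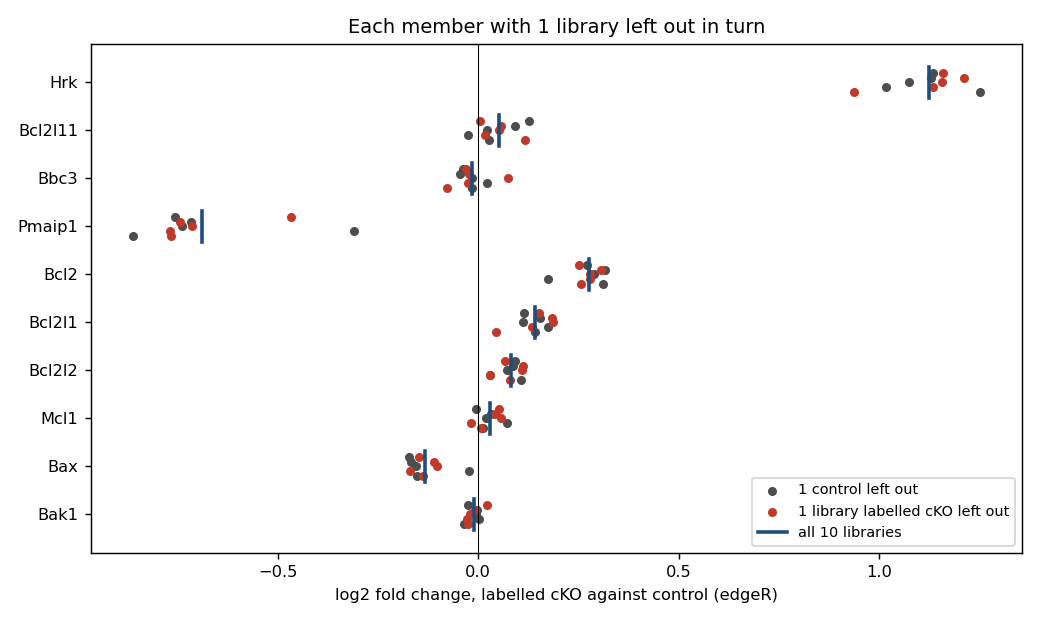
Log2 fold change (horizontal axis) of each member with all 10 libraries (blue bar) and with 1 library left out in turn (points, coloured by the genotype of the library left out). Hrk stays between 0.94 and 1.25, and the distant points of Pmaip1 (-0.31) and Bax (-0.02) are the fits without control 2.

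Levels between genes were compared per gene length, in FPKM (fragments scaled to gene length and library total, as the authors deposited them). In controls Mcl1 was highest, at 49.5 ± 4.30 FPKM, followed by Bax (30.4 ± 5.26), Bcl2l1 (17.5 ± 1.39), Bak1 (15.2 ± 0.781), Bcl2l2 (10.2 ± 0.769) and Bcl2 (8.04 ± 1.30). Below these lay Bbc3 (5.60 ± 0.435), Bcl2l11 (5.42 ± 0.867), Hrk (1.19 ± 0.275) and Pmaip1 (0.297 ± 0.161; SD, n = 5 each). The ranges of Bcl2l2 and Bcl2, of Bcl2 and Bbc3, and of Bbc3 and Bcl2l11 overlapped between neighbours in this order, and the other neighbours were separate. Hrk thus stood next to last, above 26.5% of all tested genes. In the libraries labelled cKO the order was the same except that Bcl2l11 (5.63 ± 0.691) and Bbc3 (5.56 ± 0.851), whose ranges overlapped, changed places. Hrk was there at 2.61 ± 0.730 FPKM, above 39.1% of tested genes, and its range of 1.96 to 3.86 FPKM stayed below that of every member except Pmaip1.

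**Figure D4:**
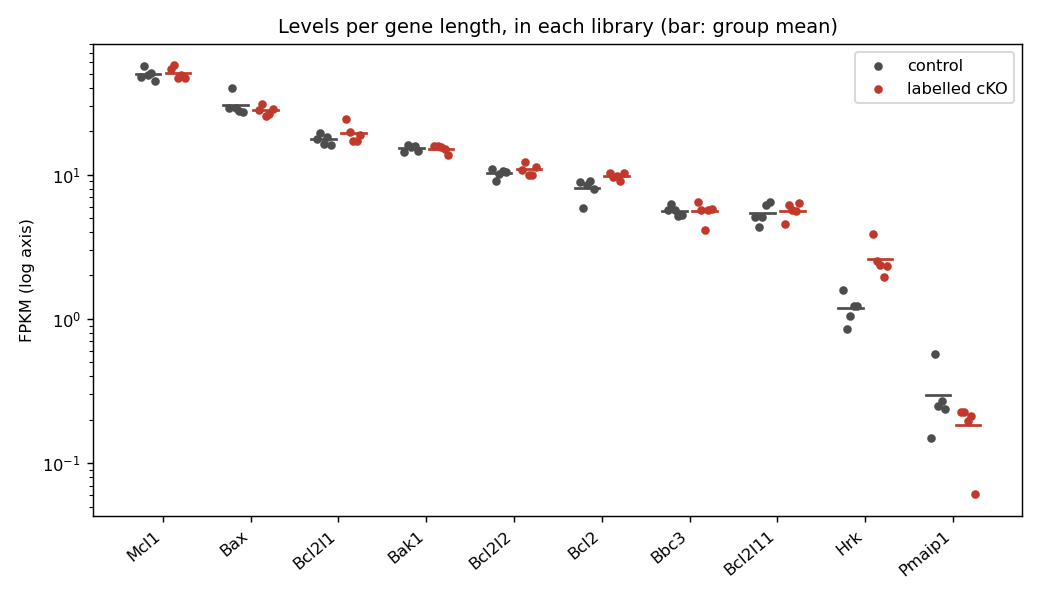
FPKM (vertical log axis) of the 10 members in each library, ordered by the control mean; points are animals and bars are group means (n = 5 each). Mcl1 has means of 49.5 and 50.7 FPKM, and Hrk lies below every member except Pmaip1 in both groups.

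Summed over the 4 pro-survival genes, the level was 85.3 ± 4.44 FPKM in controls and 90.7 ± 7.52 FPKM in the libraries labelled cKO, and the ranges overlapped (79.1 to 90.4 and 83.6 to 99.1). The 2 effectors summed to 45.6 ± 5.71 and 43.0 ± 2.22 FPKM, or 43.1 ± 1.22 FPKM in controls without control 2. The 3 BH3-only genes other than Hrk summed to 11.3 ± 0.441 and 11.4 ± 0.847 FPKM. Within the 4 BH3-only genes Hrk made up 7.09% to 12.8% of the summed FPKM in controls and 14.6% to 25.6% in the libraries labelled cKO, which follows from the values that chose it. Pro-survival FPKM exceeded Hrk FPKM 53.2 to 105.8 times in controls and 25.7 to 43.3 times in the libraries labelled cKO. The separation of these ratios likewise follows from the Hrk values, since the pro-survival sums themselves overlapped. The ratio of Bax to Bcl2 was 3.25, 6.77, 3.40, 3.04 and 3.40 in controls and 2.76, 3.20, 2.64, 2.92 and 2.77 in the libraries labelled cKO. Control 2 alone was above 3.40, and cKO 2 overlapped the controls. No test was made on these sums and ratios.

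The wider apoptosis machinery was read from 8 lists with 94 genes, of which 87 were tested. None of the 87 was called by edgeR, and 18 had an unadjusted p under 0.05, 9 lower and 9 higher. That is 20.7%, where all tested genes gave 9.65%. The lists were chosen with results of these data known, so nothing particular is drawn from that share. Of the 87, 3 (3.45%) had no overlap between genotypes, beside 2.84% of all tested genes. The median log2 fold change was -0.02, against -0.01 for all tested genes.

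Other family members came first. Of 15 genes 10 were tested, 5 with a lower and 5 with a higher fold change, a median of 0.02 and 0 calls. Bmf, a BH3-only gene, had 72.3 to 104 CPM in controls and 95.2 to 133 CPM in the libraries labelled cKO. The log2 fold change of Bmf was 0.29 (SE 0.108, edgeR adjusted p = 0.380), and 0.22 without control 2. Bok, a BAX-like member, had 17.4 to 29.3 CPM in controls, highest in control 2, and 13.8 to 19.4 CPM in the libraries labelled cKO. Its log2 fold change was -0.37 (SE 0.136, edgeR adjusted p = 0.393), and -0.24 without control 2. Bcl2l10 had 1 count in all, and Bcl2l15 and the 3 near-identical copies Bcl2a1a, Bcl2a1b and Bcl2a1d had at most 8 counts per library, too few to test.

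Downstream of the membrane, 14 genes of the caspases and the apoptosome had 11 lower and 3 higher fold changes, a median of -0.05 and 0 calls. Cycs, the gene of cytochrome c, measured 61.7, 92.2, 71.7, 66.2 and 62.6 CPM in controls. The libraries labelled cKO measured 56.6, 55.3, 57.9, 55.8 and 44.3 CPM. The groups did not overlap, and the difference of -0.39 on the log2 scale (SE 0.115, edgeR adjusted p = 0.223) was -0.29 without control 2. Apaf1, the scaffold that cytochrome c binds, had a log2 fold change of 0.31 (SE 0.135, adjusted p = 0.491) with overlapping groups. Casp9, the caspase activated on that scaffold and named for its role after its value was seen, was at 0.11 on the log2 scale (SE 0.0875, adjusted p = 0.698). It shares exon sequence with Cela2a and Ctrc, which lie on the other strand.

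The 5 inhibitor of apoptosis genes had 3 higher and 2 lower fold changes, a median of 0.01 and 0 calls. Xiap, which binds and blocks caspases, had 126.5 to 162 CPM in controls and 169 to 186 CPM in the libraries labelled cKO. The groups did not overlap, and the log2 fold change was 0.19 (SE 0.0798, edgeR adjusted p = 0.475), or 0.12 without control 2, the lowest control. Birc5 (survivin, made mostly in dividing cells) had a log2 fold change of -0.52 (SE 0.239, adjusted p = 0.517), and -0.28 without control 2. All 7 proliferation markers had a lower fold change and none was called, with sums of 401 to 583 CPM in controls and 314 to 569 CPM in the libraries labelled cKO; their part in the Birc5 value was not tested.

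Partners of the family at the mitochondrion and genes of MCL1 turnover (13 genes, 8 lower and 5 higher, median -0.04) held 0 calls and no gene at an unadjusted p under 0.05. Vdac2, a channel that binds BAK, was at -0.20 on the log2 scale (SE 0.0960, edgeR adjusted p = 0.536) and Vdac1 at -0.17 (SE 0.0835, adjusted p = 0.554). In both, control 2 was the highest library, and without it the values were -0.12 for Vdac2 and -0.11 for Vdac1. Vdac2 shares exon sequence with Comtd1. The 8 tested genes of death receptor signalling had 4 lower and 4 higher fold changes, a median of 0.00447 and 0 calls. In that list Ripk1, a kinase of the receptor complex, had a log2 fold change of 0.26 (SE 0.119, adjusted p = 0.512) and Ngfr, the p75 neurotrophin receptor, one of -0.13 (SE 0.124, adjusted p = 0.763). Exons of Ripk1 overlap those of 2 other genes.

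Upstream, the JNK pathway is the route by which trophic withdrawal is known to reach Hrk. Its 14 genes had 8 lower and 6 higher fold changes, a median of -0.05 and 0 calls. At an unadjusted p under 0.05 there were 4 lower and 0 higher genes (28.6%, beside 9.65% of all tested genes). Mapk8ip2 (JIP2, a scaffold of the pathway found mainly in neurons) measured 40.2, 36.7, 41.5, 41.6 and 36.8 CPM in controls. The libraries labelled cKO measured 35.6, 27.2, 29.1, 21.1 and 30.1 CPM, without overlap. The difference was -0.46 on the log2 scale (SE 0.117, edgeR adjusted p = 0.132). It passed the threshold with DESeq2 (adjusted p = 0.0225), with limma-voom (0.0161) and without cKO 1 (0.0464), and the highest adjusted p among its alternatives was 0.324, without control 3. Mapk10 (JNK3, the JNK of neurons) was at -0.41 on the log2 scale (SE 0.138, edgeR adjusted p = 0.330), and at -0.49 without control 2. Its adjusted p ran from 0.0365 with limma-voom to 0.669 without cKO 5. Both genes are best known from neurons, 4 of whose 16 markers were called lower, and the part of these cells in the 2 values was not tested. Also lower at an unadjusted p under 0.05, and named after their values were seen, were Atf3 and Mapk8ip1. Atf3 was at -0.68 (SE 0.268, edgeR adjusted p = 0.433) and Mapk8ip1 at -0.18 (SE 0.0792, adjusted p = 0.487). Jun, named for its role, had a log2 fold change of 0.21 (SE 0.148, adjusted p = 0.659), and its exons overlap those of Junos on the opposite strand.

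Of 10 regulators of BH3-only genes 9 were tested, 5 with a lower and 4 with a higher fold change, a median of -0.16 and 0 calls. At an unadjusted p under 0.05 there were 4 of the 9, 3 higher and 1 lower (44.4%, beside 9.65% of all tested genes). The list was chosen with results of these data known, so nothing particular is drawn from this share. Foxo1, a transcription factor that is held out of the nucleus by growth factor signals, had 50.9 to 62.4 CPM in controls and 59.9 to 79.4 CPM in the libraries labelled cKO. Its log2 fold change was 0.29 (SE 0.0890, edgeR adjusted p = 0.266), and that of Foxo4 was 0.24 (SE 0.0832, adjusted p = 0.332). The other 2, named after their values were seen, were Foxo3 at 0.34 (SE 0.125, adjusted p = 0.380) and Atf4, a factor of the stress response, at -0.26 (95% interval -0.48 to -0.05, adjusted p = 0.408). Foxo1 shares exon sequence with Gm20402. Trp53, the gene of p53, was at 0.05 (SE 0.0701, adjusted p = 0.833) and E2f1 at -0.18 (SE 0.129, adjusted p = 0.674), both named for their role after their values were seen.

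The 14 targets of p53 had 8 higher and 6 lower fold changes, the highest median of the 8 lists, 0.15, and 0 calls. Sesn1 depended on 1 library: cKO 1 had 228 CPM, the other libraries labelled cKO 91.6 to 128 CPM and the controls 79.6 to 102 CPM. Its log2 fold change was 0.52 (SE 0.206, edgeR adjusted p = 0.430), and 0.22 without cKO 1. Cdkn1a, the cell cycle inhibitor p21, had a log2 fold change of -0.21 (SE 0.0883, adjusted p = 0.477), against the median of its list, and shares exon sequence with a gene on the other strand.

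**Figure D5:**
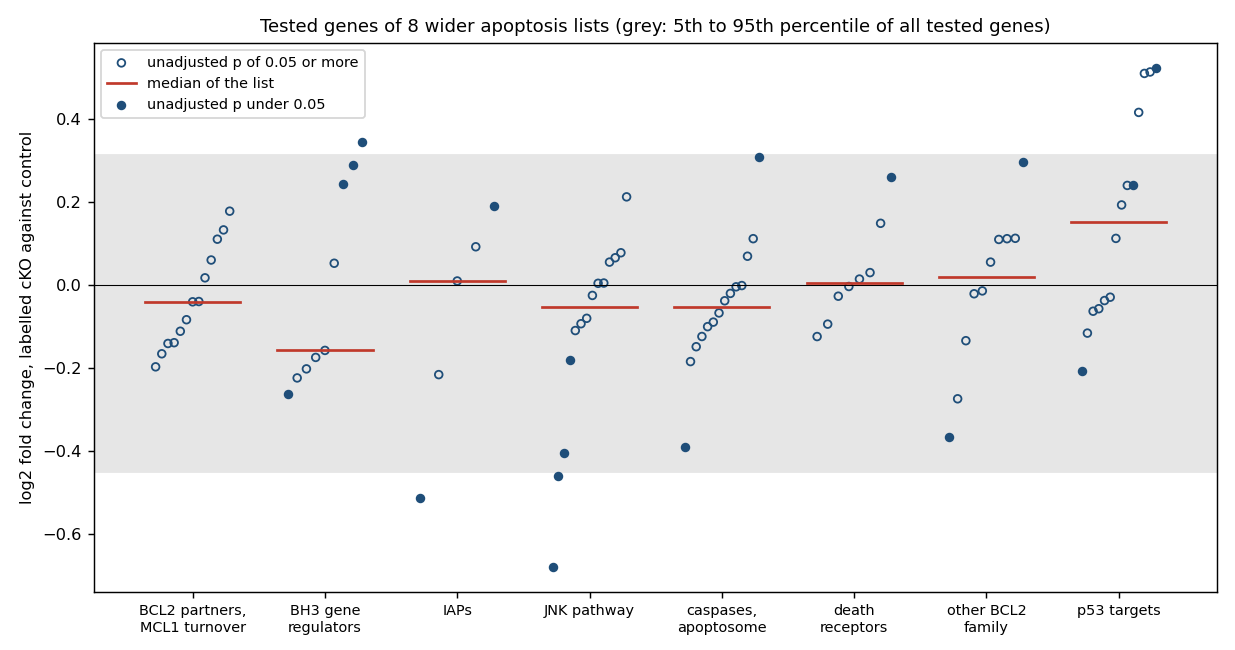
Log2 fold change (vertical axis) of the 87 tested genes of the 8 wider apoptosis lists, libraries labelled cKO against controls; filled points have an unadjusted p under 0.05, red bars are list medians and the grey band spans the 5th to 95th percentile of all tested genes. List medians lie between -0.16 and 0.15, and none of the genes passed the adjusted threshold.

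Genes beside Hrk were examined to see whether the whole neighbourhood differed. Within 250 kb, 15 other genes are in the table, 7 were tested by edgeR and 0 called, and 1 of the 7 reached an unadjusted p under 0.05, beside 9.65% of all tested genes. That gene, Fbxw8, is on the minus strand, opposite to Hrk, and its start lies 9.18 kb before Hrk. It had 112 to 137 CPM in controls and 138 to 162 CPM in the libraries labelled cKO, without overlap (2.84% of all tested genes). The log2 fold change of Fbxw8 was 0.20 (SE 0.0760, edgeR adjusted p = 0.408), and 0.15 without control 2. Rnft2, also on the minus strand, has its end 1.26 kb after Hrk. It had a log2 fold change of -0.17 (SE 0.168, adjusted p = 0.756), with wide control values of 23.8 to 46.8 CPM. Without control 2 the log2 fold change was -0.30. The other 5 were Nos1 at -0.23, Fbxo21 at 0.08, Tesc at -0.06, Gm9754 at -0.28 and 2410131K14Rik at 0.13. Without control 2 these were, in the same order, -0.42, 0.03, 0.06, -0.38 and 0.05, so the sign of Tesc turned. Exons of Fbxw8 and Gm9754 overlap on opposite strands, and those of Nos1 overlap another gene's.

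The genes most like Hrk across the 10 libraries were found by the root mean square difference of log2 CPM profiles, each centred on its own mean, among 15265 other genes with a mean of at least 1 CPM. The smallest differences were those of Cdh17 (0.290 log2 units per library), Tmem132d (0.296), Hdc (0.304), Aox4 (0.311) and Pcsk1 (0.317), where the median gene differed by 0.660 and Hrk itself varied by 0.635 about its mean. All 5 were higher in the libraries labelled cKO, by log2 fold changes of 0.79, 1.05, 1.04, 0.84 and 1.17, as the measure requires. Centred within each genotype, so that only the spread among animals counts, the nearest was Tob2 (0.0961), followed by Abcc4 (0.136), Diras2 (0.140), Mapk4 (0.140) and Jakmip1 (0.145), with a median of 0.350 over all genes. In controls Tob2 measured 49.8, 30.1, 35.5, 40.3 and 45.1 CPM, lowest in control 2 and highest in control 1, as Hrk was. Its highest library labelled cKO was likewise cKO 1, at 68.7 CPM against 38.0 to 49.2 CPM in the other 4. Tob2 was picked for the smallest difference from Hrk, so this likeness follows from the measure. Exons of Aox4, Tob2, Mapk4 and Jakmip1 overlap those of another gene.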

How the data were processed

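Counts per gene, in whole numbers, and FPKM values were deposited by the authors for the same 54532 Ensembl genes. The submitters' processing notes name STAR 2.5, HTSeq 0.61, DESeq2 2 and mm10, without their roles; filters and use of strand are not given in the sources used here. Lengths implied by the deposited FPKM values were within 0.1% of GENCODE M21 (GRCm38) for 95.3% of 13923 well-counted genes, so symbols and positions come from that annotation, which held 54495 of the IDs.

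From the counts, genes were kept by filterByExpr (minimum count 10), scaled by TMM and compared with edgeR 4.0.16 (R 4.3.3; quasi-likelihood F-test, robust, genotype as the only term), with Benjamini-Hochberg adjustment over 17937 genes and a threshold of 0.05. The fit was also run on simulated counts, drawn from the spread that it had itself estimated. They held no outlying library, so that run cannot speak to the effect of control 2 or cKO 5. SEs come from the F statistic. For Hrk the fit gives a fold change with its SE and interval as description, and no p between genotypes is printed. FPKM values were used for levels between genes. DESeq2 1.42.0, limma 3.58.1 (limma-voom with quality weights, and log2 FPKM with 1 or 0.1 added), RLE and upper-quartile scaling, other filters, a replicate block and leaving out each library were alternatives. Named genes were the 10 members, in each list the calls and the 2 smallest p, genes within 250 kb of Hrk, and the 5 profiles nearest to Hrk by each centring. Members and lists were chosen with earlier results of these data known. Each library is 1 animal, so the spread is between animals.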

Additional observations from a re-analysis of the deposited data

Results flagged for a closer look

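Dixon's test was applied to the highest and lowest library of each genotype for 13 measures: the CPM of the 10 members and the summed FPKM of the pro-survival, effector and BH3-only genes. Chance gives about 1 in 20 such groups, or 1.3 of 26, and 5 were found, 3 of them on control 2. The 5 include Hrk, which was picked, and the effector sum, which repeats Bax. Their number therefore cannot be read against 1.3. Measures that share a library or a gene are not independent. Hrk in cKO 1 was high, at 22.0 CPM against 11.2 to 14.2 in the others. Hrk was picked for its rise in these libraries, so its place among the 5 is a description and is not set against chance. Pmaip1 was high in control 2, at 1.55 CPM against 0.396 to 0.721, and low in cKO 5, at 0.164 CPM against 0.522 to 0.600. Bax in control 2 was high, at 63.8 CPM against 42.9 to 45.6, and the effector sum there, 55.6 FPKM against 41.4 to 44.3, holds the same Bax values.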

How the results depend on the processing

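None of the 9 members other than Hrk was called under any alternative run, nor at an adjusted p threshold of 0.1; their lowest adjusted p was 0.226, for Bcl2 with limma-voom. With 1 library left out, members whose sign turned ran from -0.0255 to 0.126 (Bcl2l11), -0.0787 to 0.0741 (Bbc3), -0.0177 to 0.0720 (Mcl1) and -0.0353 to 0.0219 (Bak1), and Bcl2l11 was -0.0059 with limma-voom. Calls in the JNK list were 1 with DESeq2, 2 with limma-voom and 0 to 1 with 1 library left out; the other 7 lists had 0 throughout. Over all genes, DESeq2 called 253 lower and 54 higher, limma-voom 290 and 50, and leaving out 1 library gave 44 (without control 3) to 178 (without control 2) lower and 8 (without control 3 or cKO 5) to 19 (without control 2) higher, where the edgeR fit with all libraries gave 98 and 13; the cause was not tested. In the labels the replicate numbers name the samples and give no pairing. Same-numbered libraries deviated with correlations of 0.0211 to 0.179 across genes, and 3 of 5 controls correlated best with their own number. Whether equal numbers stand for a pairing was not tested. With the replicate block 0 of the 9 members was called, and the log2 fold change of Hrk was 1.12 (SE 0.135, against 0.191 without the block). No scaling moved the median of all genes by more than 0.02. Pmaip1 had the fewest counts of the members, 6 to 55 per library.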
